A study of Homo sapiens with 32 samples.

Results

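Gene expression was compared between 2 undamaged human cell lines, U2OS and HEK293T. U2OS is an adherent line derived from an osteosarcoma, a bone-forming tumor. HEK293T is derived from human embryonic kidney and carries the SV40 large T antigen and adenoviral genes. It also expresses a number of neuronal genes. Members were libraries, chosen by cell line and lack of treatment: 16 of the 32 libraries in the series. The cell line was taken from the label in a first set and from the expression profile in a second. All were prepared by QuantSeq, in which only the 3′ ends of mRNAs are read and a long transcript gives no more counts than a short one.

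The first set held the 4 libraries of U2OS cells treated with the solvent DMSO (replicates 30 to 33) and 4 libraries of HEK293T cells treated with DMSO (replicates 22 to 25). The labels give the HEK293T cells 24 h of DMSO and 48 h of recovery before harvest. They give no such times for U2OS with DMSO and mention U2OS cells only as untreated for 72 h. Both lines were grown in DMEM with serum and antibiotics, and no library of either group carries a drug or knockout in its label. The second set held 8 other libraries, which were sorted by their expression profile. Libraries 1, 3, 5 and 7 resemble U2OS and are called here the U2OS-profile libraries. Libraries 11, 13, 15 and 17 resemble HEK293T and are called here the HEK293T-profile libraries.

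The labels of 6 of these 8 libraries name the other cell line. Libraries 3, 5 and 7 are labelled HEK293T DMSO, and libraries 11, 13 and 15 are labelled U2OS WT (wild type, 72 h of growth). Library 1, labelled U2OS WT, and library 17, labelled HEK293T DMSO, have profiles that go with their labels. Across the genes tested, the U2OS-profile libraries correlated with the U2OS DMSO libraries at r of 0.949 to 0.972 and with the HEK293T DMSO libraries at 0.813 to 0.838. The points are genes, which share library, depth and base composition. For the HEK293T-profile libraries these values were 0.810 to 0.823 and 0.964 to 0.978. Because the second set was sorted by the values themselves, its values are given by library or as a range, with no mean and no test, and nothing is supported with them.

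The U2OS DMSO libraries held 2906276 to 4161068 counts on genes and the HEK293T DMSO libraries 3343249 to 3991858. The U2OS-profile libraries held 1416967 to 3667632 and the HEK293T-profile libraries 4500361 to 5937539. Reads outside annotated genes made up 33.6 to 38.7% in U2OS DMSO and 23.6 to 30.4% in HEK293T DMSO, and mitochondrial genes took 20.6 to 26.8% and 14.4 to 17.4% of the counts on genes. In the second set the mitochondrial share was 23.1 to 36.1% in the U2OS-profile and 9.70 to 11.1% in the HEK293T-profile libraries. These shares move with the cell line in both sets, and their part in the differences below was not tested. Differences in RNA content per cell also cannot be told apart from differences in expression in bulk samples. The study describes its repeats as independent, while the labels do not tie libraries to separate cultures, and p-values measure the spread between these libraries.

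Cell lines keep part of the gene program of the tissue they came from. In bone-forming cells RUNX2 drives the production of a collagen-rich matrix, and mesenchymal cells in general build actin stress fibers and integrin contacts with that matrix. Embryonic kidney develops from mesenchyme that turns epithelial under factors such as PAX2 and EYA1, and HOX genes record the position of a cell along the body axis.

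Of 18738 autosomal genes tested, 7395 (39.5%) were past the threshold, which asked for more than 1 unit of log2 fold change in either direction and an adjusted p (Benjamini-Hochberg) below 0.05 in edgeR's quasi-likelihood test. Of all autosomal genes 4099 (21.9%) were higher in U2OS and 3296 (17.6%) higher in HEK293T. The median log2 fold change of autosomal genes was 0.022. Counting all 19739 genes tested, sex chromosomes and mitochondria included, 7872 (39.9%) were past the threshold. The difference was large for many: 670 autosomal genes exceeded a log2 fold change of 5 on the U2OS side and 450 on the HEK293T side. The DMSO libraries of the 2 lines did not overlap in 54.7% of the autosomal genes.

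A gene was counted as found in both sets when it was past the threshold in the first set and the lowest CPM (the usual depth-scaled count, here with TMM factors over the 16 libraries) of one profile exceeded the highest of the other in the same direction. This was so for 3042 (16.2%) genes higher in U2OS and 2634 (14.1%) genes higher in HEK293T. Together these were 5676 genes (30.3%). In the second set alone, without regard to the first, 54.0% of the autosomal genes did not overlap, 25.3% with the U2OS-profile libraries above and 28.7% with the HEK293T-profile libraries above. Of the genes higher in U2OS DMSO, 74.2% separated the second set the same way, 1053 overlapped and 4 separated it the opposite way. Of those higher in HEK293T DMSO, 79.9% separated it the same way, 655 overlapped and 7 were opposite. These shares, and those of the lists below, follow in part from sorting the second set by profile. They are descriptions and do not replicate the first set. Leaving out 1 library of the second set at a time gave 5743 to 6069 genes found in both sets instead. By this definition the number could not fall when a library was left out. In the single pair of second-set libraries whose labels go with their profiles, library 1 against library 17, the direction was that of the first set for 85.3% of the genes higher in U2OS and 92.9% of those higher in HEK293T. A gene at 0 in both libraries counted as not in that direction. Library 1 held 1416967 counts on genes and library 17 held 4511856, so these 2 shares cannot be compared with each other.

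**Figure D1:**
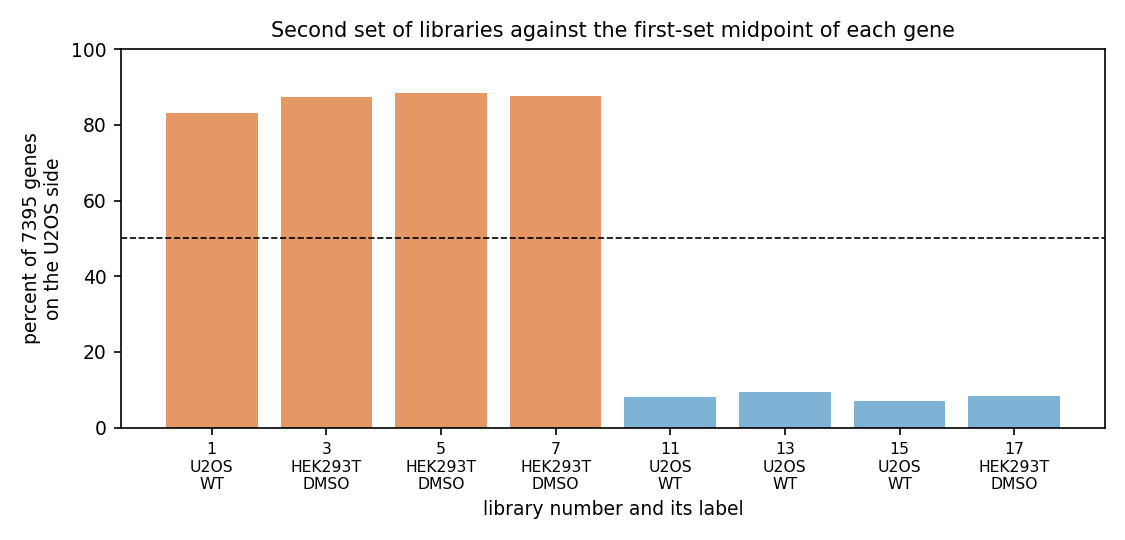
Each bar is 1 library of the second set, with its number and label below it, and its height is the percent of the 7395 autosomal genes past the threshold whose log2(CPM + 0.5) lay on the U2OS side of the midpoint between the first-set group means. Libraries 1, 3, 5 and 7 sit between 83.2 and 88.5%, and libraries 11, 13, 15 and 17 between 7.005 and 9.30%, whatever their labels.

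Values of single genes are given below in CPM, in the order of replicates 30, 31, 32 and 33 for U2OS DMSO and 22, 23, 24 and 25 for HEK293T DMSO. Fold changes are U2OS over HEK293T on the log2 scale, with the standard error of the fit. Where a line had no count in any of its libraries, the fold is given as a bound against 3 counts over the 4 libraries together, 0.189 CPM for HEK293T and 0.226 CPM for U2OS.

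The autosomal protein-coding genes with the largest differences, among those with a mean log2 CPM over 3, were in large part on in one line and at or near 0 in the other. CXCL14, a secreted chemokine, measured 1430.1, 1928, 1834 and 2468 CPM in U2OS and 1.58, 1.29, 0.885 and 0.822 CPM in HEK293T (log2 fold change 10.70 ± 0.22, adjusted p = 6.9e-29). APOL1, an apolipoprotein that lyses trypanosomes, measured 51.1, 61.5, 60.8 and 70.9 CPM in U2OS and had no count in any HEK293T DMSO library, at least 323-fold higher in U2OS. PIEZO2, a mechanically gated ion channel, measured 142, 147, 164 and 174 CPM against 3 counts in HEK293T, a ratio of 831 (95% counting interval 284 to 4033). Since genes were named as largest only where the libraries did not overlap in either set, their separation in both sets follows from that choice and is given as a description. The U2OS-profile libraries held 639.6 to 718, 28.3 to 55.7 and 216 to 262 CPM, and the HEK293T-profile libraries 0 to 0.615, 0 to 0.166 and 0 to 0.205 CPM.

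KLK6, a secreted serine protease, had 2067 counts in U2OS and 3 in HEK293T DMSO, a ratio of 823 (95% counting interval 281 to 3994). GSDMD, the pore-forming effector of pyroptosis, LPAR5, a receptor for lysophosphatidic acid, P4HTM, a membrane-bound prolyl hydroxylase, LCTL, a klotho-related glycosidase-like protein, and MUC15, a membrane mucin, had no count in HEK293T DMSO. Their U2OS means lay between 18.6 ± 3.23 CPM (SD, 4 libraries) for GSDMD and 27.7 ± 2.83 CPM for LCTL. POTEE, POTEF and POTEH, primate-specific ankyrin repeat genes, were also at 0 in HEK293T DMSO and at 22.04 ± 5.17, 19.4 ± 8.31 and 22.2 ± 3.58 CPM in U2OS. These POTE genes are close copies of each other, and reads cannot be assigned to one of them with certainty.

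Among the genes higher in HEK293T, CHCHD10, a mitochondrial intermembrane space protein, measured 273, 267, 317 and 351 CPM in HEK293T and had no count in U2OS DMSO, at least 1334-fold higher in HEK293T. TLE4, a corepressor of the Groucho family, measured 508, 524, 527 and 528 CPM against 1 count over all U2OS libraries, a ratio of 6916 (95% counting interval 1241 to 273195). UCHL1, a neuronal deubiquitinase, measured 160.1, 162, 145 and 153 CPM and had no count in U2OS. These genes, too, were chosen for not overlapping in either set. In the second set the U2OS-profile libraries reached at most 0.629 CPM for CHCHD10, 1.57 for TLE4 and 0.944 for UCHL1.

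Several of the genes with the largest values in HEK293T act in development. PAX6, a master regulator of eye and brain, DLX2, a homeobox factor of forebrain and jaw, EYA4, a transcriptional coactivator, and ALDH1A2, which makes retinoic acid, had no count in U2OS DMSO. They measured 40.9 ± 3.37, 43.01 ± 5.47, 43.9 ± 3.48 and 36.4 ± 2.87 CPM in HEK293T (mean ± SD, 4 libraries). The adaptor SKAP2, the fatty acid elongase ELOVL2 and the chromatin protein LRIF1 were likewise at 0 in U2OS, at 90.9 ± 8.93, 58.2 ± 2.94 and 49.1 ± 5.73 CPM in HEK293T. For the genes of this group the U2OS-profile libraries held no more than 0.502 CPM.

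**Figure D2:**
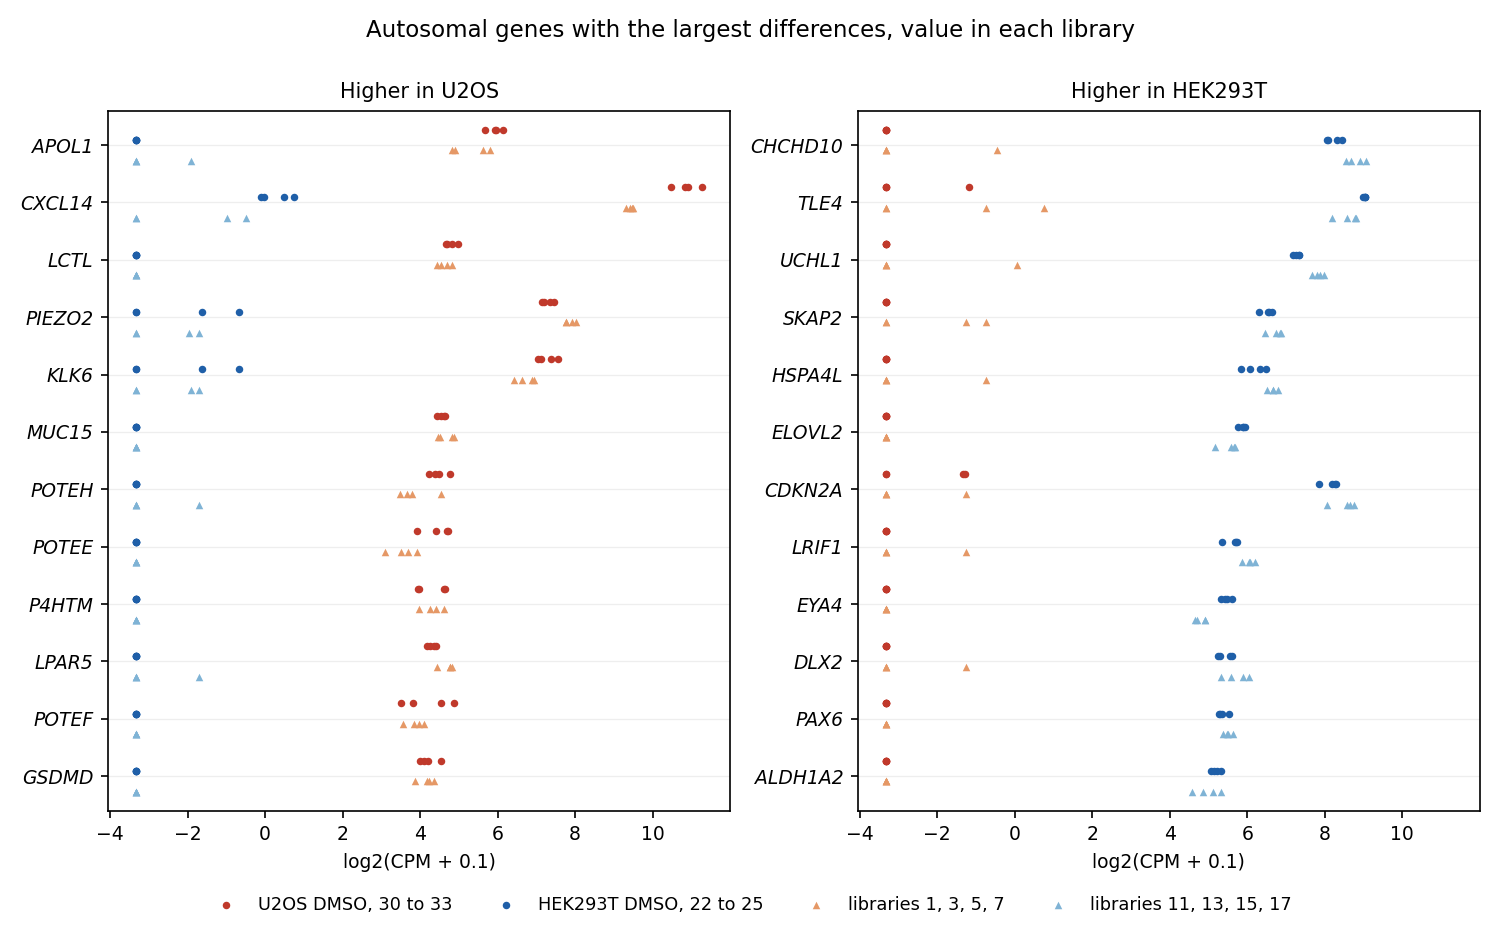
The x axis is log2(CPM + 0.1), and each row is 1 gene, with a point for every library: circles for the first set and triangles for the second. In both panels the red and orange points (U2OS DMSO and U2OS-profile) and the blue points (HEK293T DMSO and HEK293T-profile) do not overlap, and points at the left edge have 0 counts.

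The labelled cell types were then checked against their markers. Of 9 U2OS markers, RUNX2, PRRX1, COL1A1, SPARC, CAV1 and CD44 were higher in U2OS. VIM, the mesenchymal intermediate filament protein, differed by 0.75 ± 0.11 and did not pass the fold cutoff. COL1A2, the partner chain of COL1A1 in type I collagen, had at most 2 counts in any first-set library and was not tested, and TWIST1, a mesenchymal transcription factor, went the other way. Of 8 HEK293T markers reported here, only NEFM and LIN28B were higher in HEK293T. The kidney factor LHX1, the neurofilament NEFL and the stem cell factor SOX2 were higher in U2OS, PAX2 and STMN2 did not pass the threshold, and PAX8 had at most 3 counts and was not tested. SP7, BGLAP, IBSP and DMP1, markers of mature bone cells, and HNF4A, a factor of kidney tubule, were at 0 in all first-set libraries. The marker check thus went with the label for U2OS in part and for HEK293T in few genes. Of 22 blood and endothelial cell markers 17 were too low to be tested, PTPRC, CD3E, LYZ and PECAM1 among them, and the summed level of the other 5 was 8.02 to 10.6 CPM in U2OS and 2.63 to 5.31 CPM in HEK293T. TEK, an angiopoietin receptor at 8.36 ± 1.12 CPM in U2OS, made up most of the former.

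Genes for bone matrix and its secreted regulators were mostly higher in U2OS. Of 54 autosomal genes on this list 40 were tested, 30 were higher in U2OS and 2 in HEK293T, with a median log2 fold change of 2.72 against 0.022 over all autosomal genes. Of those tested 80% passed, beside 39.5% of all autosomal genes. As a description, since that set was sorted by profile, all 30 were also found in the second set, beside 74.2% of all autosomal genes higher in U2OS. COL1A1, the main chain of type I collagen, measured 2511, 3190.3, 2712 and 3914 CPM in U2OS and 21.9, 21.2, 25.01 and 24.1 CPM in HEK293T (log2 fold change 7.08 ± 0.15, adjusted p = 2.9e-28). SPARC, a collagen-binding bone glycoprotein, measured 955, 1044, 908 and 1001 CPM and 11.1, 5.70, 3.98 and 3.84 CPM. TNFRSF11B, the decoy receptor osteoprotegerin that restrains osteoclasts, measured 86.8, 131, 101 and 94.96 CPM and 0.263, 0.518, 0.221 and 0.274 CPM. Each of the 3 was higher in every U2OS library than in any HEK293T library.

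Other fibrillar and beaded collagens followed the same direction, with log2 fold changes of 7.43 ± 0.17 for COL11A1, 7.29 ± 0.22 for COL6A3, 5.72 ± 0.20 for COL3A1 and 3.06 ± 0.22 for COL5A2. The matrix proteases MMP14 (6.48 ± 0.27) and MMP2 (5.78 ± 0.20), thrombospondin THBS1 (6.36 ± 0.21), fibronectin FN1 (2.40 ± 0.14) and the growth factor BMP4 (3.73 ± 0.15) were higher in U2OS as well. SPP1, the phosphoprotein osteopontin, had 203 counts in U2OS and 2 in HEK293T, a ratio of 121 (95% counting interval 33.1 to 1008). The exceptions were SERPINF1, an anti-angiogenic serpin, at 32.04 ± 5.99 CPM in U2OS and 149 ± 8.73 CPM in HEK293T, and the WNT antagonist DKK1, which had no count in U2OS and 1.34 ± 1.03 CPM in HEK293T. SERPINF1 kept its direction in the second set, while DKK1 overlapped there.

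Transcription factors of skeletal and mesenchymal cells were split between the lines. Of 42 tested 78.6% passed, beside 39.5% of all autosomal genes: 15 were higher in U2OS and 18 in HEK293T, with a median of -0.44. RUNX2, the regulator of bone formation, measured 15.7, 21.9, 18.2 and 17.3 CPM in U2OS and 0.527, 2.07, 0.443 and 0 CPM in HEK293T (4.55 ± 0.34), and its relative RUNX1 66.7 ± 6.42 and 1.43 ± 0.403 CPM. SOX9, the chondrocyte factor, was higher in U2OS by 3.37 ± 0.14, and the ETS factors ETV5 and ETV4 by 5.57 ± 0.27 and 4.23 ± 0.35. TBX15 and TBX5, which pattern limb and shoulder skeleton, were also higher in U2OS, TBX5 at 2.97 ± 1.10 CPM with no count in HEK293T. PRRX1, a limb mesenchyme factor, differed by 1.21 ± 0.19 in the first set (0.98 with total counts), but in the second the U2OS-profile libraries (1.72 to 14.6 CPM) overlapped the HEK293T-profile libraries (9.02 to 10.5 CPM).

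On the HEK293T side, TWIST1 measured 19.5, 24.3, 26.3 and 26.04 CPM and had no count in any U2OS DMSO or U2OS-profile library. ALX4 and ALX1, homeobox factors of the face, and DLX6 were at 0 in U2OS DMSO and at 12.2 ± 0.862, 6.93 ± 1.31 and 10.5 ± 1.55 CPM in HEK293T. The epithelial-to-mesenchymal factors SNAI2 (-3.47 ± 0.18) and ZEB2 (-5.43 ± 0.32) and the forkhead factor FOXC1 (-2.51 ± 0.12) were higher in HEK293T too. Within a single family the direction could differ, with RUNX1 and RUNX2 higher in U2OS and RUNX3 (-1.81 ± 0.23) higher in HEK293T.

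Genes of the actin cytoskeleton, caveolae and stress fibers were higher in U2OS in 36 of 52 tested and higher in HEK293T in 2, with a median of 2.19. The share past the threshold was 73.1%, beside 39.5% of all autosomal genes. S100A6, a calcium-binding protein, measured 161, 154, 153 and 119 CPM in U2OS and 2.11, 1.04, 1.11 and 1.64 CPM in HEK293T. EMP1, a membrane protein of adherent cells, measured 318 ± 52.2 and 4.82 ± 1.37 CPM. The membrane-linking annexin ANXA2 differed by 4.28 ± 0.14, the tropomyosin TPM1 by 3.35 ± 0.12, the actin crosslinker ACTN1 by 2.63 ± 0.12 and the caveolar coat protein CAV1 by 1.61 ± 0.13. Cytoplasmic actin ACTB was higher in U2OS by 1.95 ± 0.14 and the glycolytic enzyme GAPDH by 1.49 ± 0.11, both common reference genes outside this list. In the opposite direction, PDLIM1, an actin-binding LIM protein, measured 5.02, 3.42, 3.70 and 3.52 CPM in U2OS and 57.1, 49.96, 72.4 and 66.3 CPM in HEK293T, and smooth muscle actin ACTA2 2.39 ± 0.891 and 22.7 ± 9.87 CPM.

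Integrins and other surface glycoproteins went the same way, with 31 of 48 tested higher in U2OS, 5 higher in HEK293T and a median of 1.63. Here 75% passed, beside 39.5% of all autosomal genes. THY1, a surface protein of fibroblasts, measured 116, 129.8, 139 and 178 CPM in U2OS and 1.32, 1.29, 1.55 and 0.822 CPM in HEK293T. ITGB8, an integrin that activates TGF-β, differed by 6.75 ± 0.19, the fibronectin receptor chains ITGB1 and ITGA5 by 2.97 ± 0.11 and 1.91 ± 0.17, and the hyaluronan receptor CD44 by 3.72 ± 0.20. ITGB3, the β chain of the vitronectin receptor, had 2 counts in HEK293T, a ratio of 139.8 (95% counting interval 38.3 to 1161). ITGA8, an integrin of the developing kidney, measured 0.886, 0.683, 0.309 and 0.271 CPM in U2OS and 32.9, 33.4, 36.1 and 39.5 CPM in HEK293T. ITGA1, a collagen receptor, was higher in HEK293T DMSO (-1.12 ± 0.19, and -0.99 with library 17 added to that group), yet in the second set the U2OS-profile libraries (13.7 to 16.99 CPM) were all above the HEK293T-profile libraries (8.13 to 12.5 CPM), 1 of 11 genes with such a reversal. CD44 was not at the same level in all HEK293T libraries: HEK293T DMSO measured 8.16, 6.73, 3.76 and 2.19 CPM, and the HEK293T-profile libraries 0 to 0.408 CPM.

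YAP and TAZ, with their DNA-binding partners TEAD, and the AP-1 factors of the FOS and JUN families switch on genes of attached and spreading cells. Of 35 such factors and targets tested 71.4% passed, beside 39.5% of all autosomal genes. Higher in U2OS were 22 and in HEK293T 3, with a median of 1.25. As a description only, all 22 were also found in the second set, beside 74.2% of all autosomal genes higher in U2OS. CTGF, a secreted matrix protein and YAP target, measured 348, 347, 288 and 210.2 CPM in U2OS and 6.32, 3.88, 6.86 and 3.84 CPM in HEK293T. CYR61 (3.77 ± 0.17), ANKRD1 (4.44 ± 0.21) and the receptor tyrosine kinase AXL (5.76 ± 0.23), further targets, were higher in U2OS. The AP-1 subunit FOSL2 measured 254, 213, 198 and 199.7 CPM in U2OS and 5.002, 5.95, 5.09 and 3.84 CPM in HEK293T. The regulators themselves differed by 1.44 ± 0.12 for TEAD1, 1.14 ± 0.15 for WWTR1 (TAZ) and 1.01 ± 0.16 for YAP1. YAP1 lost its call with total counts (0.79) and without any 1 of replicates 30 (0.86), 31 (0.98), 23 (0.96) or 25 (0.87) and with library 17 added (0.91), and WWTR1 with total counts (0.93) and without replicate 30 (0.97). JUN and ATF3, further factors of the AP-1 type, went the other way, by -1.20 ± 0.13 and -2.66 ± 0.19, as did NT5E, a surface nucleotidase. In the second set ATF3 kept that direction and JUN overlapped.

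The letters bound by these factors were looked up in the promoter windows of the RefSeq table (GRCh38.p14), in the 250 bases before each annotated start. N stands for any base, so TGATTCA counted as a match as well as TGAGTCA and TGACTCA. The AP-1 motif TGANTCA, on either strand, was present in 6.79% of 1782 promoters of protein-coding autosomal genes higher in U2OS in both sets, in 2.33% of 1718 promoters of those higher in HEK293T, in 4.02% of the 10730 promoters of genes tested and in 6.56% of all 26246 autosomal promoters in the table. The TEAD motif GGAATG was present in 11.95%, 9.66%, 9.49% and 11.9% of these promoters. The median number of CG dinucleotides was 19 in the U2OS group, 21 in the HEK293T group and among genes tested, and 11 among all promoters. Promoter entries were matched for 1782 of 2394 and 1718 of 2160 genes. These shares are descriptions without a test, and a match is not evidence of binding.

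Stretches are shown for 6 genes higher in U2OS in both sets, chosen among named genes that hold a match, so the matches follow from the choice. They belong to the genes with the largest differences (CXCL14, P4HTM) or to the skeletal factors and the actin, epithelial and YAP lists (RUNX2, EMP1, CLDN4, CTGF). Capitals mark TGANTCA in all but CTGF, where they mark the TEAD motif GGAATG, and all are written along the strand of the gene, 5′ to 3′. CTGF is listed under its newer symbol CCN2 in the RefSeq table.
CXCL14, chr5:135579047-135579113, minus strand: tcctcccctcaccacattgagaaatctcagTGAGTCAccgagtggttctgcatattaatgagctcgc
P4HTM, chr3:48989788-48989854, plus strand: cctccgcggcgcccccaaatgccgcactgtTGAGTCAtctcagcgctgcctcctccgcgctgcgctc
RUNX2, chr6:45328080-45328123, plus strand: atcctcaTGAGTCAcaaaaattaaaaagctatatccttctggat
EMP1, chr12:13196521-13196587, plus strand: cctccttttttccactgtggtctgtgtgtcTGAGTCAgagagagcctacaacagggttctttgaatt
CLDN4, chr7:73830746-73830871, plus strand: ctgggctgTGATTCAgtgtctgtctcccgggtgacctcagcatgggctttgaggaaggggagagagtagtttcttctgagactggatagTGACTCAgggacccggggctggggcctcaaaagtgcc
CTGF, chr6:131951432-131951571, minus strand: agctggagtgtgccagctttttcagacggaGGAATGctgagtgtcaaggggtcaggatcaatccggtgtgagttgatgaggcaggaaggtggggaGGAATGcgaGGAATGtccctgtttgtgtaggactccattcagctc

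The matches start 92 bases before the annotated start in CXCL14, 90 in P4HTM, 243 in RUNX2, 175 in EMP1 and 242 and 161 in CLDN4. EMP1 holds another match, TGATTCA, 48 bases before its start. In CTGF, GGAATG occurs 3 times, between 169 and 95 bases before the start. Of the 12 genes with the largest difference in each direction, 9 had a promoter entry on the U2OS side and 3 of these held TGANTCA, while 11 had one on the HEK293T side and 0 of these held it. GGAATG was present in 3 of these 9 promoters and in 1 of these 11, that of SKAP2. Among AP-1, YAP and TEAD genes higher in U2OS, 16 had a promoter entry, of which 2 held TGANTCA and 6 held GGAATG.

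Of 36 kidney and urogenital transcription factors and signals tested, 17 were higher in HEK293T and 3 in U2OS, with a median of -1.01. In this list 55.6% passed, beside 39.5% of all autosomal genes. TFAP2A, a factor of neural crest and kidney, measured 0.591, 1.02, 0.926 and 3.25 CPM in U2OS and 155, 164, 168 and 191 CPM in HEK293T. TBX1 and PAX3, factors of pharyngeal arches and muscle, had no count in U2OS DMSO and 35.998 ± 5.76 and 6.91 ± 0.960 CPM in HEK293T. The orphan receptor NR2F1 (-4.86 ± 0.14), the nephron progenitor factor SIX2 (-2.56 ± 0.39), EYA1 (-1.24 ± 0.22) and the ureteric receptor RET (-2.40 ± 0.28) were higher in HEK293T. PAX2, a factor of the early kidney, missed the fold cutoff narrowly, with 2.95, 1.71, 4.32 and 4.06 CPM in U2OS, 7.37, 8.54, 5.31 and 5.76 CPM in HEK293T and a log2 fold change of -0.99 ± 0.29. It passed with total counts (-1.22) or without replicate 32 (-1.15), 33 (-1.09), 24 (-1.10) or 25 (-1.06). OSR2, a factor of kidney mesenchyme, had 3 counts in U2OS and 155 in HEK293T, a ratio of 43.3 (95% counting interval 14.5 to 212). SALL4, a zinc finger factor of embryonic cells, WNT4, which drives nephron formation, and LHX1 were higher in U2OS, by 4.30 ± 0.36, 2.81 ± 0.50 and 1.66 ± 0.20.

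HOX genes were higher in HEK293T in 20 of 35 tested and higher in U2OS in 2, with a median of -1.26. Of those tested 62.9% passed, beside 39.5% of all autosomal genes. Also found in the second set were 17 of the 20, beside 79.9% of all autosomal genes higher in HEK293T. In the HOXA cluster on chromosome 7, 10 of 11 genes were higher in HEK293T. In the HOXB cluster this was so for 6 of 9 genes, in the HOXD cluster for 3 of 7 and in the HOXC cluster for 1 of 8. HOXA5 measured 13.3, 6.49, 7.10 and 8.12 CPM in U2OS and 291, 288, 299 and 265 CPM in HEK293T (-4.99 ± 0.16, adjusted p = 7.2e-24). HOXD13, the most distal gene of its cluster, had 1 count in U2OS and 47.4, 47.4, 48.7 and 42.8 CPM in HEK293T, while HOXD10 and HOXD11 of the same cluster differed by -0.77 ± 0.12 and -0.27 ± 0.13 and did not pass. HOXA7 (0.25 ± 0.17) stood between HOXA6 (-4.62 ± 0.29) and HOXA9 (-2.28 ± 0.14). In the second set, however, HOXA7 was lower in the U2OS-profile (10.1 to 15.5 CPM) than in the HEK293T-profile libraries (16.5 to 21.7 CPM). The same was so for HOXD11 (27.5 to 36.5 and 39.8 to 47.9 CPM), while HOXD10 overlapped. HOXC11 and HOXC13 were higher in U2OS by 1.11 ± 0.18 and 1.18 ± 0.17, but without TMM scaling no HOX gene passed in that direction.

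**Figure D3:**
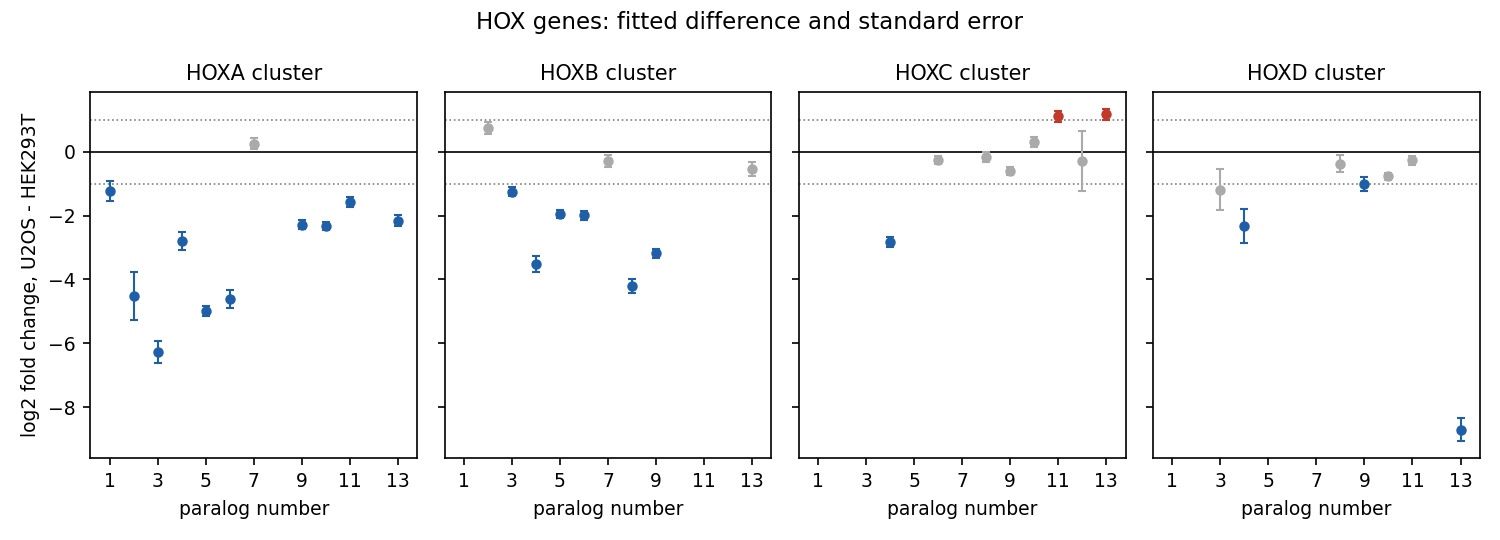
The y axis is the log2 fold change of U2OS DMSO over HEK293T DMSO with its standard error, and the x axis is the paralog number in each of the 4 HOX clusters. Blue points were higher in HEK293T, red points higher in U2OS and grey points not past the threshold, with dotted lines at 1 and -1. All HOXA genes except HOXA7 lie below -1, and among the HOXC genes only HOXC4 does; HOXD13 is lowest at -8.71.

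Neural and neuroendocrine genes were divided. Of 56 tested 60.7% passed, beside 39.5% of all autosomal genes: 18 were higher in U2OS and 16 in HEK293T, with a median of 0.20. The medium neurofilament NEFM had 1 count in U2OS DMSO and 64.5, 77.1, 79.9 and 113 CPM in HEK293T, a ratio of 1101 (95% counting interval 197 to 43515), and the neuronal filament INA and the neuroendocrine factor INSM1 were at 0 in U2OS and at 10.4 ± 0.816 and 8.93 ± 2.87 CPM in HEK293T. ISL1, a motor neuron factor, the microtubule protein MAPT (tau) and the tubulin TUBB2B were higher in HEK293T by 5.69, 1.44 and 1.44. The light neurofilament NEFL went the opposite way, with 152, 165, 163 and 203 CPM in U2OS and 50.6, 55.4, 67.1 and 77.3 CPM in HEK293T, although the second set overlapped for it. SOX2, a factor of neural and pluripotent stem cells, measured 175, 195, 205 and 250.2 CPM in U2OS and 20.01, 21.5, 16.4 and 17.3 CPM in HEK293T (3.48 ± 0.13). DPYSL3, an axon guidance protein, NES, the filament protein of neural progenitors, and the synaptic proteins SYT11 and SNAP25 were higher in U2OS by 5.80 ± 0.17, 4.78 ± 0.14, 5.65 ± 0.22 and 4.58 ± 0.34.

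Oncofetal and stem cell genes were higher in HEK293T in 9 of 25 tested and in U2OS in 6, with a median of -0.06. Together 60% passed, beside 39.5% of all autosomal genes. The share higher in U2OS was near that of all autosomal genes, 21.9%. LIN28B, which blocks let-7 processing, measured 13.6, 14.01, 19.4 and 14.9 CPM in U2OS and 53.7, 63.2, 72.2 and 79.2 CPM in HEK293T. The mRNA-binding proteins IGF2BP1 and IGF2BP3 were higher in HEK293T by 4.66 and 4.18, whereas IGF2BP2 (0.92 ± 0.11) did not pass. ZIC2, a zinc finger factor of the neural plate, measured 0.544 ± 0.317 CPM in U2OS and 165 ± 9.07 CPM in HEK293T, and ZIC5 and the deubiquitinase USP44 had no count in U2OS. Growth factor IGF2, the tumor antigen PRAME and MYCN were higher in U2OS by 3.40 ± 0.19, 2.62 ± 0.13 and 2.295 ± 0.29.

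Epithelial junction and keratin genes did not follow one direction either. Of 37 tested 83.8% passed, beside 39.5% of all autosomal genes: 19 were higher in U2OS and 12 in HEK293T, with a median of 1.03. The list also counts cadherins not particular to epithelia, such as CDH11 on the U2OS side, so these counts do not measure epithelial character. Another 17 of its 54 autosomal members were too low to be tested in either line, KRT19, ESRP1 and GRHL2 among them. The desmosome genes DSP, DSC2, DSC3 and DSG2 were higher in HEK293T, whereas the plakophilins PKP2 and PKP3 of the same structure were higher in U2OS. DSP measured 0.591, 0.342, 0.309 and 0 CPM in U2OS and 213, 212, 216 and 252 CPM in HEK293T, and DSC3 had 1 count in U2OS and 93.4 ± 4.53 CPM in HEK293T. E-cadherin CDH1 measured 0.591, 0, 0.926 and 1.35 CPM and 13.7, 10.1, 12.2 and 12.3 CPM. The keratins past the threshold, KRT7, KRT8, KRT18, KRT80 and KRT81, and the adhesion molecule EPCAM were higher in U2OS, with 32.8, 38.6, 32.7 and 37.9 CPM and 4.21, 2.85, 2.66 and 3.02 CPM for EPCAM, and log2 fold changes of 4.30 ± 0.20 for KRT8 and 1.72 ± 0.15 for KRT18. CLDN4, a tight junction claudin, and the mesenchymal cadherin CDH11 were higher in U2OS by 6.49 ± 0.32 and 5.96 ± 0.26, and N-cadherin CDH2 by 1.25 ± 0.11.

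Antigen presentation and interferon genes were higher in U2OS in 34 of 50 tested and in HEK293T in 3, with a median of 1.70. Past the threshold were 74%, beside 39.5% of all autosomal genes. Of the 34, 25 were also found in the second set, a share near the 74.2% of all autosomal genes higher in U2OS. B2M, the light chain of HLA class I, measured 1704, 2414, 2038 and 2370.1 CPM in U2OS and 449, 459, 457 and 459 CPM in HEK293T. The immunoproteasome subunit PSMB8, the DNA sensor IFI16 and the antiviral membrane protein IFITM3 were higher in U2OS by 5.58 ± 0.33, 5.89 ± 0.20 and 5.20 ± 0.18, and so was the cytosolic sensor CGAS (4.62 ± 0.36). Among the class I heavy chains, HLA-B differed by 1.54 ± 0.11, while HLA-C (-0.31 ± 0.11) did not pass. These chains are highly similar in sequence, and counts may be split between them. The class II chain HLA-DRB1 went the opposite way, at 0.439 ± 0.249 CPM in U2OS and 9.85 ± 1.65 CPM in HEK293T.

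Of the cell cycle genes tested 30.4% passed, beside 39.5% of all autosomal genes. Of 46 G1 cyclin, CDK inhibitor, RB and E2F genes tested, 4 were higher in U2OS and 10 in HEK293T, with a median of -0.16, and 32 did not pass. The largest difference was in CDKN2A, which encodes the CDK4/6 inhibitor p16 and the MDM2 inhibitor p14ARF. It measured 0.295, 0, 0.309 and 0 CPM in U2OS and 313, 294, 305 and 232 CPM in HEK293T, 2 counts against 4546, a ratio of 1903 (95% counting interval 526 to 15718). U2OS-profile libraries held at most 0.315 CPM and HEK293T-profile libraries 267 to 430.5 CPM. Cyclin D1, CCND1, measured 146, 134, 134 and 141 CPM in U2OS and 26.9, 22.5, 28.996 and 34.8 CPM in HEK293T (2.32 ± 0.13). The replication licensing factor CDT1 (-1.73 ± 0.12) and EZH2 (-1.38 ± 0.12) were higher in HEK293T, and thymidylate synthase TYMS (2.03 ± 0.11) and CCNE1 (1.49 ± 0.14) higher in U2OS.

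The CDK inhibitor CDKN1A measured 100.1, 90.9, 95.95 and 108 CPM in U2OS and 19.5, 18.9, 35.4 and 31.5 CPM in HEK293T. PLK2, a kinase of centriole duplication, the cytokine GDF15 and the phosphatase PPM1D were higher in U2OS by 5.25 ± 0.17, 1.96 ± 0.21 and 1.58 ± 0.14. SESN2, an inhibitor of mTORC1, and CCNG1 were higher in HEK293T by 2.54 and 1.52. TNFRSF10D, a decoy receptor for the death ligand TRAIL, and SPATA18, a factor of mitochondrial quality control, had no count in any U2OS DMSO library and measured 9.39 ± 1.36 CPM and 5.14 ± 1.06 CPM in HEK293T (mean ± SD, n = 4), at least 41.6-fold and 22.9-fold higher. MDM2, a ubiquitin ligase, differed by -0.46 ± 0.13, with 138, 129, 139 and 139 CPM and 161, 145, 229.5 and 231 CPM, and did not pass the fold cutoff.

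TERT, the catalytic subunit of telomerase, had no count in any U2OS DMSO or U2OS-profile library, at depths where 3 counts correspond to 0.721 to 2.12 CPM. It measured 3.95, 4.66, 2.66 and 1.64 CPM in HEK293T DMSO and 1.49 to 2.45 CPM in the HEK293T-profile libraries, at least 14.2-fold higher in HEK293T DMSO. U2OS is known as a line that maintains telomeres by recombination, without telomerase. Of 39 telomere genes tested, 3 were higher in U2OS and 6 in HEK293T, with a median of -0.36, so that 23.1% passed beside 39.5% of all autosomal genes. The shelterin-associated protein TERF2IP (-1.19 ± 0.11) and the telomerase assembly factor NAF1 (-1.33 ± 0.16) were higher in HEK293T. SP100, a scaffold of PML bodies, and TSPYL5, a protein of such bodies, were higher in U2OS, with 37.5, 35.5, 52.8 and 47.1 CPM and 1.84, 0.518, 2.43 and 1.64 CPM for SP100 and 5.41 ± 0.25 for TSPYL5.

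Of 104 molecular chaperones and cochaperones tested 33.7% passed, beside 39.5% of all autosomal genes: 23 were higher in U2OS and 12 in HEK293T, with a median of 0.14. A few members differed by large amounts. CLU, a secreted chaperone, measured 1601, 1859.6, 1796 and 2402 CPM in U2OS and 34.8, 31.3, 30.1 and 32.6 CPM in HEK293T (5.92 ± 0.14, adjusted p = 2.7e-27). CRYAB, the small heat shock protein HSPB5, measured 38.7, 21.5, 27.8 and 27.1 CPM in U2OS and 1.05, 1.55, 1.33 and 1.64 CPM in HEK293T, and HSPB1 593 ± 41.7 and 68.3 ± 2.56 CPM. HSPA4L, a nucleotide exchange factor for HSP70, had no count in U2OS DMSO and 57.1, 67.6, 80.8 and 89.9 CPM in HEK293T.

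The stress-inducible HSP70 genes HSPA1A and HSPA1B encode nearly the same protein. HSPA1A measured 227, 214, 164 and 149 CPM in U2OS and 9.21, 4.92, 4.21 and 3.29 CPM in HEK293T (5.15 ± 0.20), while HSPA1B measured 59.1, 61.8, 42.9 and 31.1 CPM and 121, 85.9, 86.5 and 80.04 CPM (-0.91 ± 0.16) and did not pass, except with total counts (-1.13) or without replicate 30 (-1.02) or 31 (-1.06). Because reads can be shared between these genes, their sum was taken as well, and it was 286, 276, 207 and 179.9 CPM in U2OS and 130.1, 90.9, 90.8 and 83.3 CPM in HEK293T. All U2OS libraries were above all HEK293T libraries in the sum, in both sets, as the U2OS-profile libraries held 245 to 287 CPM and the HEK293T-profile libraries 27.2 to 99.8 CPM. The abundant cytosolic members differed less, with 3479 ± 565 and 1689 ± 140.1 CPM for HSP90AB1 (1.07 ± 0.11), which lost its call with total counts (0.84) or without replicate 33 (0.98), 0.54 ± 0.14 for constitutive HSC70, HSPA8, and 0.38 ± 0.12 for HSP90AA1. DNAJC15 and DNAJC12, J-domain cochaperones, went in opposite directions, by 5.23 ± 0.20 and -4.80 ± 0.34. Of the autosomal subunits of the TRiC chaperonin, 8 did not pass, with values between -0.74 ± 0.10 for CCT3 and 0.50 ± 0.10 for CCT6A. The other one, CCT6B, had 2 counts in U2OS and 30 in HEK293T.

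Receptor tyrosine kinases differed in both directions. Of 43 tested 60.5% passed, beside 39.5% of all autosomal genes: 13 were higher in U2OS and 13 in HEK293T, with a median of 0.46. PDGFRB, a receptor of mesenchymal cells, measured 38.1, 35.2, 26.5 and 31.1 CPM in U2OS and 0.527, 0, 0.664 and 0.274 CPM in HEK293T. The neurotrophin receptor NTRK3, the collagen receptor DDR1 and ROR1 were higher in U2OS by 5.35 ± 0.31, 2.98 ± 0.11 and 2.67 ± 0.11. KIT, the stem cell factor receptor, had 1 count in U2OS and 51.1, 53.3, 34.3 and 37.8 CPM in HEK293T, and EPHA7, FLT1 and FGFR3 were higher in HEK293T by 6.61, 6.15 and 2.49. EGFR (-0.82 ± 0.14) and MET (-0.46 ± 0.12) did not pass the fold cutoff. EGFR passed with total counts (-1.05). For EGFR the second set was apart in the opposite direction, at 37.98 to 42.8 CPM in the U2OS-profile and 21.6 to 25.01 CPM in the HEK293T-profile libraries.

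Cytosolic ribosomal protein genes were the only list with no member higher in U2OS. Of 74 tested, 38 (51.4%) were higher in HEK293T, beside 17.6% of all autosomal genes, and the median was -1.05. As a description only, all 38 were also found in the second set, beside 79.9% of all autosomal genes higher in HEK293T. Their sum was 32153 to 38743 CPM in U2OS DMSO and 65008 to 70271 CPM in HEK293T DMSO, and 34602 to 42717 and 91118 to 110151 CPM in the U2OS-profile and HEK293T-profile libraries. RPS6, the ribosomal protein phosphorylated downstream of mTORC1, measured 672, 557, 661 and 595 CPM in U2OS and 2805, 2694, 2958 and 3007 CPM in HEK293T (-2.18 ± 0.11, adjusted p = 1.3e-18). RPS7, RPL32 and RPL7A were lower in U2OS by 1.84, 1.82 and 1.73 on the log2 scale. Ribosomal protein genes have many pseudogenes, among which reads may be split, and the mitochondrial share above moved with the groups as well.

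**Figure D4:**
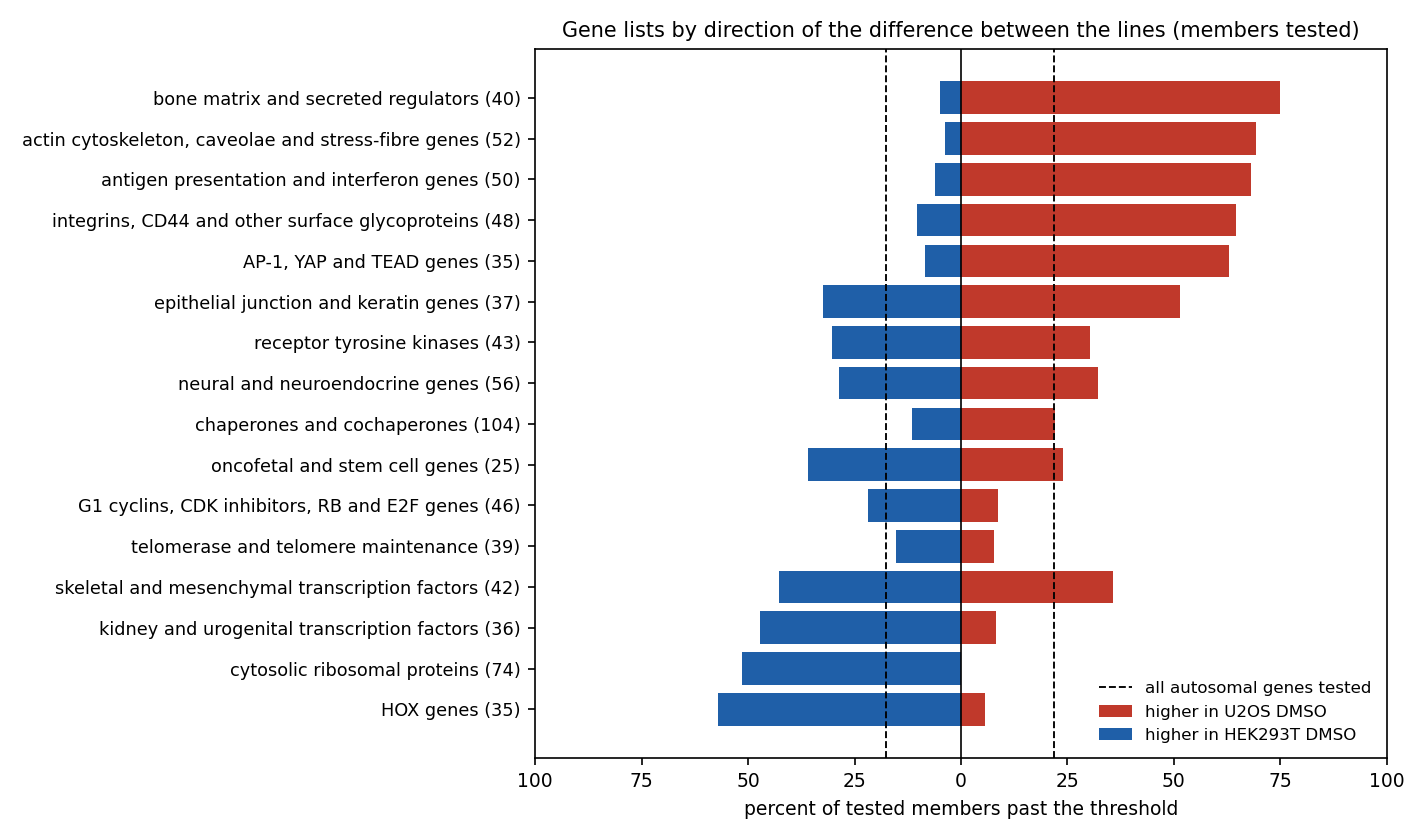
Bars show, for each gene list with its number of tested autosomal members, the percent past the threshold and higher in U2OS (red, right) or in HEK293T (blue, left). Dashed lines mark all autosomal genes tested, 21.9% and 17.6%. Bone matrix, actin, interferon, integrin and AP-1/YAP genes extend beyond the line on the U2OS side, and HOX, ribosomal protein, kidney and cell cycle genes on the HEK293T side. Epithelial, skeletal factor, neural, oncofetal and receptor tyrosine kinase genes extend beyond the lines on both sides, and chaperones reach the line on the U2OS side. Oncofetal genes pass the U2OS line, and cell cycle genes the HEK293T line, by little.

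These directions depend in part on how libraries were scaled. With total counts in place of TMM, the median log2 fold change of all genes moved from 0.014 to -0.21, and the share of genes past the threshold that were higher in U2OS from 54.6% to 45.0%. Under this scaling the medians of the chaperone (-0.087) and neural (-0.023) lists changed sign, ribosomal protein genes higher in HEK293T numbered 53, and 18 chaperones were higher in U2OS and 19 in HEK293T. The medians of the bone matrix (2.49), actin (1.96), interferon (1.47), integrin (1.41), AP-1/YAP (1.03), HOX (-1.48) and kidney (-1.24) lists kept their direction. Members that were too low to be tested are absent from these counts, and a gene that passed the filter through one line alone had to differ, so the counts describe the tested members only.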

How the data were processed

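RNA of the cells was made into QuantSeq 3′ libraries with molecular identifiers, and the authors deposited 1 table of counts per gene and library, made with the Lexogen pipeline on the BlueBee platform. Aligner settings and genome build are not given in the sources used here. The table holds 60107 genes; 92 spike-in controls and 5 summary rows were left out. Gene names and chromosomes were taken from GENCODE 29, in which 56531 gene identifiers matched.

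Genes were tested if 2 or more of the 8 first-set libraries held over 1 count, with the quasi-likelihood test of edgeR 4.0.16 (R 4.3.3), after TMM scaling. A gene passed with a log2 fold change beyond 1 in size and an adjusted p below 0.05 (Benjamini-Hochberg, over all 19739 genes). The standard error is the fold change divided by the root of the F statistic. CPM values were scaled jointly over 16 libraries, and 3 counts in 1 library correspond to 0.505 to 2.12 CPM. Intervals and floors cover counting error only. Simulated data for this comparison held 19027 genes, of which 100 were changed by 1 and 100 by 2 on the log2 scale. Of these, 77% and 99% reached an adjusted p below 0.05 in the right direction, without the fold cutoff. With the cutoff there were 0 false calls among unchanged genes. The changed genes were all above 3 CPM and far fewer than in the data, and dispersion was fixed. These shares are thus not recovery rates of the threshold used here. No pair of replicates in a group was alike enough to be 1 library deposited again.

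Named genes were the 12 autosomal protein-coding genes with the largest change in each direction that had a mean log2 CPM over 3 and no overlap in either set, up to 4 per direction and list with a mean log2 CPM over 1, and a set of markers. A further 52 named genes (among them MMP2, FN1, YAP1, HSP90AB1 and HOXA7) were chosen after their values were seen, and a few genes and 1 list are not reported here. Members and lists were chosen with earlier results of these data known. Alternatives were the likelihood ratio test, DESeq2 1.42.0, other scalings, filters and cutoffs, other sets of libraries by label and leaving out each replicate. Promoter windows came from RefSeq (GRCh38.p14). Figures were drawn with a pseudocount of 0.1 CPM.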

Additional observations from a re-analysis of the deposited data

Results flagged for a closer look

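In 308 groups of 4 libraries, 1 group per named gene and cell line with a highest CPM of at least 5, 12 held a library far from the other three, with a gap to its neighbor that took most of the range. Chance alone gives such a library in about 1 in 20 groups. In U2OS DMSO, replicate 33 was high for IFITM3 (134 CPM against 94.6 to 99.8 in the others), MMP2 (197 against 120.3 to 132) and MAPT (21.6 against 17.1 to 17.8). Replicate 30 was high for WWTR1 (70.6 against 45.0 to 47.1) and HOXD11 (41.4 against 31.7 to 32.8), and replicate 31 was low for DPYSL3 (344 against 379.8 to 385) and MDM2 (129 against 138 to 139). In HEK293T DMSO, replicate 25 was high for DSP (252 against 212 to 216), HOXC13 (14.5 against 9.84 to 10.5) and HSP90AA1 (2814 against 2278 to 2297). Replicate 22 was low for LRIF1 (40.5 against 51.0 to 52.9) and high for HSPA1B (121 against 80.0 to 86.5). Of these genes, leaving out the library named lost the call of WWTR1 only, at 0.97.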

How the results depend on the processing

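The 7872 genes past the threshold became 8260 with the likelihood ratio test, 7069 with DESeq2, 7851 with RLE scaling, 8190 with total counts and 7944 without a filter. They became 5090 with the stricter filterByExpr (2660 higher in U2OS), 12256 without a fold cutoff (5941 higher in HEK293T), and 4426 at a log2 fold change over 2 (2654 in U2OS and 1772 in HEK293T). With all 32 libraries placed by label in 1 fit there were 3345 (1184 and 2161), and with all 8 libraries labelled HEK293T DMSO as controls 339 (160 and 179); both fits mix libraries of either profile within a label. In these 2 fits, in that order, STMN2 (-0.27 and -0.29), CAV1 (-0.21 and -0.22), HSPA8 (-0.56 and -0.55), CDH13 (-0.047 and -0.084) and KRT8 (-0.10 and -0.12) changed sign. Adding only library 17 to the HEK293T DMSO group gave 8079 genes. Leaving out 1 replicate at a time gave 7518 to 7735 genes, 4069 to 4223 higher in U2OS and 3439 to 3549 higher in HEK293T. The 5676 genes found in both sets were 5743 to 6069 without 1 second-set library, which by definition could not lower the number. They were 5584 with total counts, and 3463 where a gap of at least 1 on the log2(CPM + 0.5) scale was required. Among values of single genes and lists, 4550 stayed on their side of the threshold, 343 fell below it, 23 rose above it, 101 list counts moved by over 1.5 times and 10 changed sign. The depth limits genes near 3 counts. In a single library, levels under a floor of 0.721 to 1.03 CPM in U2OS DMSO could not be told from 0. In HEK293T DMSO this floor was 0.752 to 0.897 CPM, depending on the library. No paired analysis was possible because each library carries a number of its own, shared by no library of the other group.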

Other observations

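Some members of the gene lists counted above had large differences and were not described there. The let-7 and cell cycle regulator TRIM71 measured 0.0676 ± 0.135 CPM in U2OS DMSO and 9.87 ± 2.65 CPM in HEK293T DMSO (mean ± SD, 4 libraries), and the ephrin receptor EPHA3 0.839 ± 0.504 and 16.2 ± 4.50 CPM. CDKN2B, the inhibitor p15 encoded beside CDKN2A, differed by -2.24 ± 0.49 on the log2 scale, with 10 counts in U2OS DMSO and 59 in HEK293T DMSO. In the second set it overlapped (1.51 to 3.43 CPM in the U2OS-profile and 2.66 to 7.38 CPM in the HEK293T-profile libraries). The growth factor TGFB2 (4.50 ± 0.14) and its matrix target TGFBI (5.11 ± 0.24) were higher in U2OS. The TGF-beta coreceptor ENG had 59 counts in U2OS DMSO and 2 in HEK293T DMSO, a ratio of 35.2 (95% counting interval 9.33 to 298).

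The HEK293T DMSO libraries and the HEK293T-profile libraries were not alike in every gene higher in U2OS, and the genes that differed were of several kinds. ANKRD1 measured 20.8, 21.5, 10.6 and 6.30 CPM in HEK293T DMSO and 0.316 to 1.22 CPM in the HEK293T-profile libraries. SPARC measured 11.1, 5.70, 3.98 and 3.84 CPM in the former and 0.498 to 0.816 CPM in the latter. The libraries of these 2 kinds did not overlap for either gene, while for AXL (10.005, 4.40, 3.10 and 0.822 CPM against 0.316 to 1.22 CPM) they did. COL11A1 (1.33 to 2.59 against 0 to 0.158 CPM) and the DNA sensor IFI16 (0.885 to 2.33 against 0 to 0.410 CPM) did not overlap either. The same held for the chaperones CRYAB (1.05 to 1.64 against 0 to 0.316 CPM) and HSPA1A (3.29 to 9.21 against 0.830 to 1.84 CPM). Other such genes overlapped, among them CLU (30.1 to 34.8 against 27.4 to 44.3 CPM). For all these genes both kinds of HEK293T libraries stayed below the U2OS DMSO and U2OS-profile libraries. The difference was not tested, since the labels of 3 of the 4 HEK293T-profile libraries name U2OS.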
